A study of Homo sapiens with 6 samples.

Results

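Expression of the transcription factor family NF-kB and of the proteins that restrain it was compared between vehicle and ox-LDL, the oxidized form of the cholesterol carrier LDL, in T24, an established cell line from a human bladder carcinoma. The genes were taken by symbol: the 5 subunit genes NFKB1, NFKB2, REL, RELA and RELB and the 5 feedback inhibitor genes NFKBIA, NFKBIE, NFKBIZ, TNFAIP3 and BIRC3. A probe set, the group of array probes that reads a gene, carried exactly 1 of these symbols in the platform annotation for 9 of the 10, all 5 subunits and 4 inhibitors, each with a single probe set, among 17687 named genes and 21448 probe sets tested. BIRC3, which encodes a ubiquitin ligase of tumour necrosis factor receptor complexes, had no probe set under its symbol and is not analysed here. All 9 measured genes lay above the 95th percentile of the negative control probe sets (log2 value 5.21), so no filter on low values touched them.

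The vehicle group (CON) and the ox-LDL group (OXLDL) each held 3 samples of this single line, with 1 array per sample. All cells grew in RPMI medium with 10% fetal bovine serum and went 12 h without serum, after which they received either vehicle or ox-LDL at 20 µg/mL for 24 h. Whether each sample was a culture of its own is not stated in the labels, so p-values measure only how these samples spread, which may be technical. The serum-free, vehicle-treated cells are the reference for every difference, and RNA from bulk cells cannot tell fewer expressing cells from less RNA per cell.

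NF-kB proteins act as pairs that bind DNA at short sites called kB motifs. In resting cells an inhibitor such as IkBα, the product of NFKBIA, holds the pair in the cytoplasm, and after stimulation by cytokines or microbial products the inhibitor is degraded and the pair enters the nucleus. Among the genes it then switches on are those of its own inhibitors and of some of its subunits, which makes a feedback loop. Carcinoma cells, bladder cancer lines among them, often transcribe cytokine genes that NF-kB regulates.

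The third vehicle array stood apart from the others. Over all tested probe sets it correlated with the rest at 0.979 to 0.988, while the remaining 5 correlated with each other at 0.992 to 0.997. Its 6 most GC-rich background probe sets averaged a log2 value of 7.82, compared with 7.27 to 7.37 elsewhere. Results that change without it are given both ways. Per the labels, 1 free-text field calls the arrays siRNA controls and G9a knockdowns, while titles, sources and treatments name vehicle and ox-LDL, which the groups follow. EHMT2, the gene of G9a, was at 7.63 to 8.005 on the vehicle arrays and 8.06 to 8.34 on the ox-LDL arrays (limma adjusted p = 0.125), so the arrays labelled as knockdown did not have less of it. KRT7, KRT8 and KRT18, keratins of simple epithelia and urothelium, had group means between 11.9 and 12.3. Other epithelial markers were lower. KRT19 stood at 7.67 with vehicle and 7.78 with ox-LDL. EPCAM was at 5.48 and 5.61, close to the negative control value of 5.21. Above the negative controls lay 5 of 6 epithelial markers (not the cadherin CDH1), 4 of 6 urothelial (not the plaque genes UPK1B and UPK3A), 3 of 5 leukocyte (not PTPRC and LYZ), 4 of 4 fibroblast, 3 of 4 endothelial (not KDR) and 2 of 2 erythroid markers. Over all probe sets 21.4% had both group means at or below the negative controls. A value above them is thus common and does not by itself show that a cell type's gene is expressed. Between the groups 0 of these 27 markers passed in limma and 5 had an unadjusted p under 0.05, which was so for 26.1% of all probe sets. Over the 16 alternative settings up to 2 passed, which were KRT7 and VWF.

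In the feedback loop described above, NF-kB acts on promoters of its inhibitors and of some of its subunits. Whether it did so in these cells was not measured. Promoter windows of some of the genes are shown first. RefSeq windows (GRCh38.p14) of 250 bases before to 50 bases after an annotated start were at hand for 8 of the 10 genes, 13 windows in all. Each was searched on both strands for GGNNNTTCC, a shortened kB motif, and for the 10-base kB consensus. The matches of the searches largely overlap. The windows of 5 genes follow, 5′ to 3′ on the gene's strand, with matches of either search in capitals: those of the 3 inhibitors and of NFKB2, which fell, and that of REL, which did not pass the test.
NFKBIA, chr14:35404700-35404999, minus strand: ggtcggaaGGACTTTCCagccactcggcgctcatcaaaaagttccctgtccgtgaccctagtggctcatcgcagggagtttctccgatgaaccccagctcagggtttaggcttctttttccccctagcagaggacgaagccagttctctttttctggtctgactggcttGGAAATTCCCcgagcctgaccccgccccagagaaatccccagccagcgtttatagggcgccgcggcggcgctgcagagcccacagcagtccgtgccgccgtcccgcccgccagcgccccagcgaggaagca
TNFAIP3, chr6:137867009-137867308, plus strand: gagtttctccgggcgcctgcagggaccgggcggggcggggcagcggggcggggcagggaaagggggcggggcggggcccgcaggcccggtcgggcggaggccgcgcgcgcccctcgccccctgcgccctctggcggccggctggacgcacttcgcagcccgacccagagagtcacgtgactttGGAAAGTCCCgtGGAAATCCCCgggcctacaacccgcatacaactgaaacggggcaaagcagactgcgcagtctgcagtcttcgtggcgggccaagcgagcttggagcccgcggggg
NFKBIZ, chr3:101827740-101828039, plus strand: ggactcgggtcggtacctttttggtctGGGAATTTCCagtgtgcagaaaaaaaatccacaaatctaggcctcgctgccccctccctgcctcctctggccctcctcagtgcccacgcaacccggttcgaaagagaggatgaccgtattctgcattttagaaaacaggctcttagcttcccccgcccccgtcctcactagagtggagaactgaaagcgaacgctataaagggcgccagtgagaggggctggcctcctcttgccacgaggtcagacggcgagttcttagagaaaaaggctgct
NFKB2, chr10:102394328-102394627, plus strand: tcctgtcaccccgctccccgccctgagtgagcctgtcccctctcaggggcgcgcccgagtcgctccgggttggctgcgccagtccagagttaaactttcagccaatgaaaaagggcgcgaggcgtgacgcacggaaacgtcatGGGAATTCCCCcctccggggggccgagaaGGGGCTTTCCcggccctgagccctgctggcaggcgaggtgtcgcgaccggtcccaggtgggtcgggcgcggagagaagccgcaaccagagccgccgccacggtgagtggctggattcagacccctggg
REL, chr2:60881324-60881623, plus strand: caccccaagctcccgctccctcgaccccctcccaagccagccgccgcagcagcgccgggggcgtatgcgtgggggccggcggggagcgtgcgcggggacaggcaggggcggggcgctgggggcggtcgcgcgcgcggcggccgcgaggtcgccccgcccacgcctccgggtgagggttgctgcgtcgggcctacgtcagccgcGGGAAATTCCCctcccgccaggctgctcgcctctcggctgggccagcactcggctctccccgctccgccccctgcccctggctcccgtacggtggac

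Matches stood in windows of 7 of the 8 genes, at 14 separate stretches once overlapping matches were joined. In NFKBIA they began 242 and 81 bases before the start, and in TNFAIP3 67 and 55 bases before it. The NFKBIZ window shown has its match 223 bases before the start, and the window at a second NFKBIZ start (chr3:101849264-101849563) has a match 239 bases before that start. NFKB2 had the most stretches, 2 in the window shown, at 107 and 78 bases, and 2 in the window of another start (chr10:102395455-102395754), at 176 and 21 bases. REL had its match 47 bases and NFKB1 49 bases before the start. BIRC3 had matches 199 and 135 bases before its start, and neither of the 2 RELA windows had any. Another NFKB1 window (chr4:102501684-102501983) and another NFKB2 window (chr10:102393860-102394159) also had none. In all, 9 of the 13 windows held a match. RELB and NFKBIE were not searched.

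Across all 35116 windows of the same length, 20.1% held the shortened motif and 11.3% the consensus; of 27305 genes, 23.5% and 13.3% did so in at least 1 window. Each search matched 7 of the 8 members and 9 of their 13 windows. Of the genes of the loop with a window and a probe set, the 5 that fell (NFKB1, NFKB2, NFKBIA, NFKBIZ and TNFAIP3) had a match. REL had a match without passing the test. RELA had no match and did not pass, though its groups were separate and lower with ox-LDL. Whether matches and falls are linked was not tested. A match of letters is a description and does not show binding, which was not measured.

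With ox-LDL, NFKBIZ, TNFAIP3 and NFKBIA were lower by 1.79-fold to 2.98-fold, and of the subunits RELB, NFKB2 and NFKB1 were lower by 1.37-fold to 1.75-fold. RELA, REL and NFKBIE did not pass the test. In all, 6 of the 9 measured genes fell and 0 rose (limma, Benjamini-Hochberg adjusted p under 0.05 over all probe sets), where 6.77% of all probe sets passed in either direction, 3.29% lower and 3.48% higher. The arrays of the groups did not overlap for 7 of the 9, all lower with ox-LDL, which was so for 17.7% of all probe sets, with a further 19.1% separated the other way. The median log2 difference over the 9 was -0.67, against -0.03 over all probe sets. The selection stated by the study asks for a fold change of 1.5 or more and a p of at most 0.001, here the unadjusted limma p; it took 5 of the 9 as lower, and 1.31% of all probe sets. Values below are log2 expression, in the order of the replicates, and each fold change is 2 to the power of a difference of group means.

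**Figure D1:**
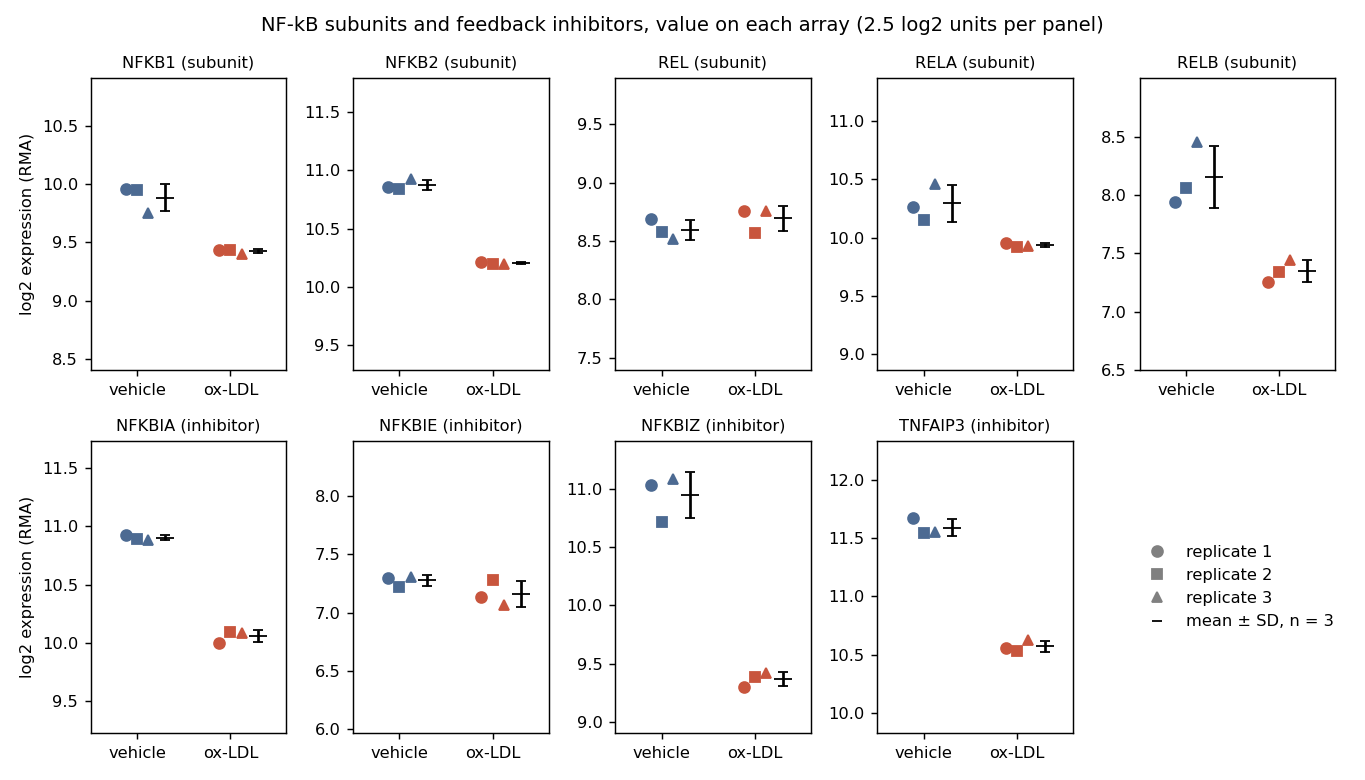
Log2 expression (RMA) on the vertical axis of the 9 measured genes in vehicle and ox-LDL samples, one point per array with the marker giving the replicate number, and the mean ± SD (n = 3) beside each group; every panel spans 2.5 log2 units. The groups are separate in 7 panels and overlap for REL and NFKBIE, and the third vehicle array (triangle) is the highest vehicle value of NFKB2, RELA, RELB, NFKBIE and NFKBIZ and the lowest of NFKB1, REL and NFKBIA.

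The largest falls were those of the inhibitors NFKBIZ and TNFAIP3, while the inhibitor NFKBIA (-0.84) lay close to the subunit RELB (-0.80). NFKBIZ encodes IkBζ, a nuclear member of the inhibitor family that binds NF-kB on DNA and can also help it activate a subset of cytokine genes, so it is a modulator as well as an inhibitor. It stood at 11.03, 10.72 and 11.09 with vehicle and at 9.30, 9.39 and 9.42 with ox-LDL. Every ox-LDL array was thus more than a log2 unit below every vehicle array. The mean went from 10.94 ± 0.20 to 9.37 ± 0.06 (SD, n = 3 each), a log2 difference of -1.58 (SE 0.11, 95% confidence interval -1.84 to -1.31, limma adjusted p = 0.00119). It was the 23rd lowest of the 21448 differences.

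TNFAIP3 encodes A20, an enzyme that edits ubiquitin chains and shuts off signalling from cytokine receptors to the IkB kinases. Its values were 11.68, 11.54 and 11.55 with vehicle and 10.56, 10.53 and 10.63 with ox-LDL. Both groups were narrow and far apart. The log2 difference was -1.02 (SE 0.08, 95% confidence interval -1.20 to -0.84, limma adjusted p = 0.00126), a 2.02-fold lower level.

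NFKBIA, whose promoter is shown above, encodes IkBα, the inhibitor that is degraded and made anew within a cycle of activation. It read 10.93, 10.89 and 10.88 with vehicle and 9.998, 10.09 and 10.09 with ox-LDL. The vehicle arrays differed among themselves by an SD of 0.02 and the ox-LDL arrays by an SD of 0.05. Its log2 difference was -0.84 (SE 0.07, 95% confidence interval -1.01 to -0.68, limma adjusted p = 0.00186), and it was 1.79-fold lower.

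NFKBIE, which encodes the related cytoplasmic inhibitor IkBε, did not follow the other inhibitors. Its values were 7.30, 7.22 and 7.31 with vehicle and 7.14, 7.28 and 7.07 with ox-LDL, so that the second ox-LDL array lay inside the vehicle range. With a log2 difference of -0.11 (SE 0.08, 95% confidence interval -0.31 to 0.08) it missed the threshold (limma adjusted p = 0.401). The interval holds no fall as large as that of NFKBIA, TNFAIP3 or NFKBIZ.

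Among the subunits, RELB and NFKB2 encode the pair of the alternative pathway, in which the precursor made from NFKB2 is cut and joins RelB. NFKB2 had the tightest groups, with 10.86, 10.84 and 10.92 for vehicle and 10.21, 10.20 and 10.20 for ox-LDL. It fell from 10.87 ± 0.05 to 10.20 ± 0.01 (SD, n = 3 each), a log2 difference of -0.67 (SE 0.07, 95% confidence interval -0.83 to -0.51, limma adjusted p = 0.00346). RELB read 7.94, 8.06 and 8.45 with vehicle and 7.25, 7.34 and 7.44 with ox-LDL. The groups are separate, but the third vehicle array is well above the other vehicle arrays. Its log2 difference was -0.80 (SE 0.14, 95% confidence interval -1.14 to -0.47, limma adjusted p = 0.0214). Without the third vehicle array the difference was -0.66 (adjusted p = 0.0083). The call was lost without the second vehicle array (adjusted p = 0.0561) and without ox-LDL replicate 1, 2 or 3 (adjusted p = 0.104, 0.0995 and 0.0790).

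NFKB1 encodes the precursor of the subunit that pairs with RelA in the classical pathway. It stood at 9.95, 9.94 and 9.75 with vehicle and at 9.43, 9.44 and 9.40 with ox-LDL. Here the third vehicle array was the lowest of its group and still above all ox-LDL arrays. The log2 difference was -0.46 (SE 0.08, 95% confidence interval -0.65 to -0.27, limma adjusted p = 0.0228), a 1.37-fold lower level. It passed without the third vehicle array (-0.52, adjusted p = 0.00518), but not without vehicle replicate 1 or 2 (adjusted p = 0.0646 and 0.0738) or ox-LDL replicate 1, 2 or 3 (adjusted p = 0.108, 0.110 and 0.110).

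RELA encodes the main activating subunit of the classical pathway, whose activity is set chiefly by its release from the inhibitors. Its values were 10.27, 10.15 and 10.46 with vehicle and 9.96, 9.92 and 9.93 with ox-LDL. The groups did not overlap, yet the log2 difference of -0.36 (SE 0.09, 95% confidence interval -0.58 to -0.13) missed the threshold (limma adjusted p = 0.0715). Without the third vehicle array, the highest of its group, the difference shrank to -0.27 and passed (adjusted p = 0.0430). REL encodes c-Rel, a subunit best known from lymphocytes. It read 8.68, 8.58 and 8.52 with vehicle and 8.75, 8.57 and 8.75 with ox-LDL, and the groups overlapped. The log2 difference was 0.10 (SE 0.09, 95% confidence interval -0.11 to 0.31, limma adjusted p = 0.483), the only one above 0 among the 9.

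**Figure D2:**
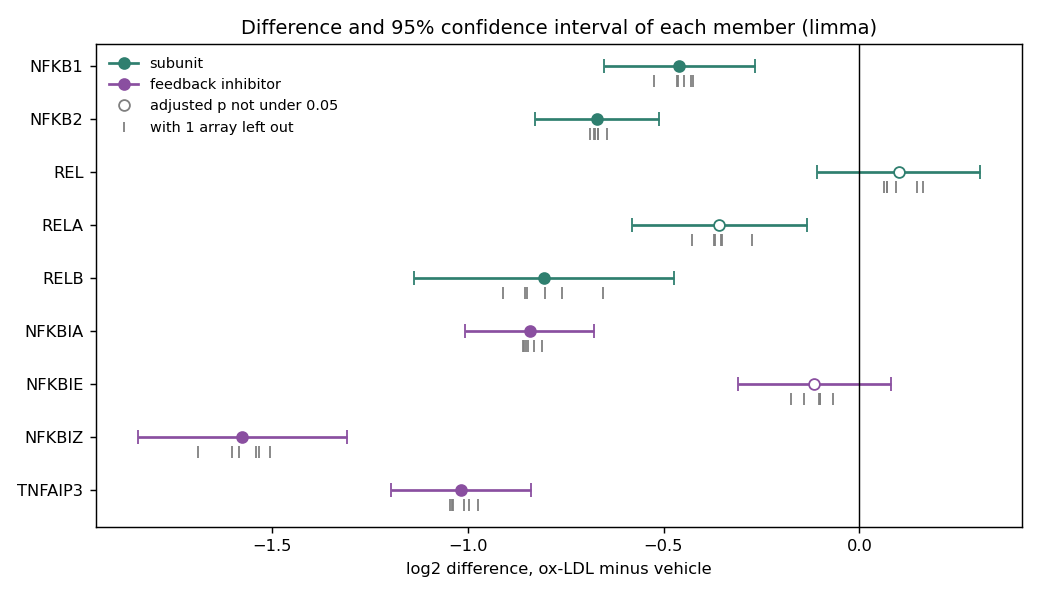
Log2 difference between ox-LDL and vehicle on the horizontal axis for each gene, with limma's 95% confidence interval; open circles did not pass an adjusted p of 0.05 and grey ticks are the differences with 1 array left out. The intervals of REL and NFKBIE cross 0, and no tick lies on the other side of 0 from its circle.

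Set side by side, the inhibitors had a median log2 difference of -0.93 over 4 genes, with 3 lower, and the subunits one of -0.46 over 5 genes, with 3 lower. Relative to the vehicle mean of each gene, the ox-LDL arrays averaged -0.93, -0.85 and -0.88 over the inhibitors and -0.44, -0.46 and -0.41 over the subunits. The difference between these averages was thus present on each ox-LDL array, all set against the same vehicle means. NFKBIZ, at -1.58, and REL, at 0.10, both widen it. Apart from these genes, the inhibitors TNFAIP3, NFKBIA and NFKBIE had log2 differences of -1.02, -0.84 and -0.11. The subunits RELB, NFKB2, NFKB1 and RELA had -0.80, -0.67, -0.46 and -0.36, all within the range of those inhibitors. The contrast of the roles was not uniform over genes. In 16 of the 20 pairs of an inhibitor with a subunit the inhibitor had the more negative difference. The other 4 pairs all involved NFKBIE. The within-array log ratio of inhibitor to subunit did not overlap between the groups in 17 of the 20 pairs, 13 with the inhibitor falling further and 4 with the subunit falling further. The ratios overlapped in the remaining 3 pairs. These were NFKBIA and RELB, with a difference of -0.04 between their changes (exact two-sided permutation p = 0.8), TNFAIP3 and RELB, with -0.21 (exact p = 0.4), and NFKBIE and REL, with -0.22 (exact p = 0.3). With 3 arrays against 3 an exact permutation test cannot go below 0.1, which 17 pairs reached (0.118 after Benjamini-Hochberg adjustment over 20), so no pair passes by this test. These counts rest on the same 9 genes, have no share over other gene pairs beside them and are a description. Of single probe sets, rather than ratios, 17.7% were separated lower and 19.1% higher with ox-LDL.

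The calls of NFKB2, NFKBIA, NFKBIZ and TNFAIP3 were kept in all 16 alternative settings, the 6 that leave out an array included. With an array left out, the highest adjusted p was 0.0340 for NFKB2, 0.0196 for NFKBIA, 0.0162 for TNFAIP3 and 0.0149 for NFKBIZ. RELB passed in 10 settings, NFKB1 in 8, RELA in 4 and neither REL nor NFKBIE in any. The number of the 9 that fell was 7 without the third vehicle array, 5 and 4 without the first and second, and 4 without any of the 3 ox-LDL arrays, while over all probe sets 2670 passed without the third vehicle array, 806 and 718 without the first and second, and 309, 305 and 335 without ox-LDL replicates 1, 2 and 3.

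**Figure D3:**
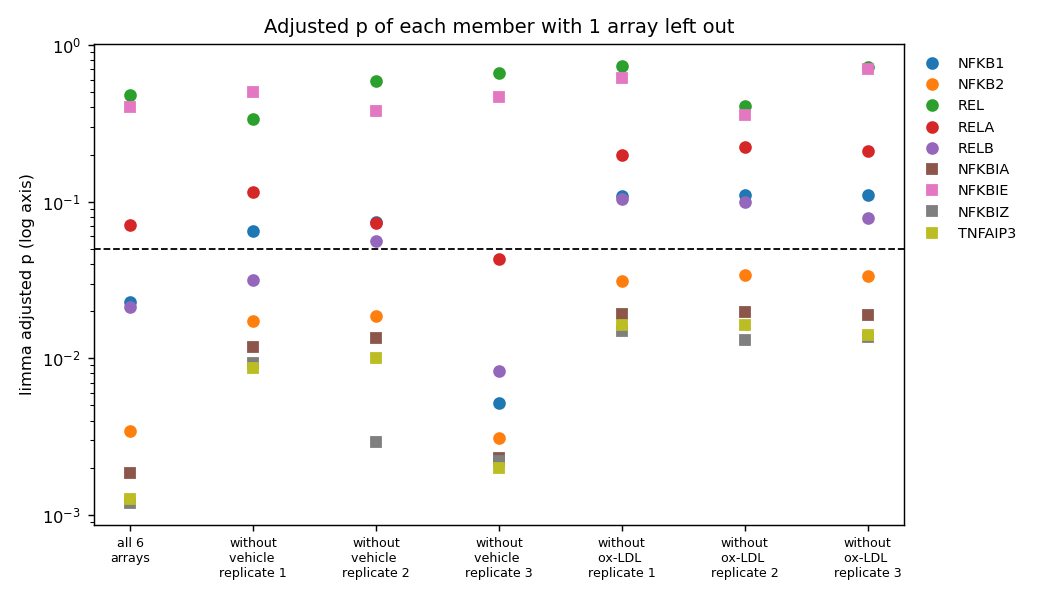
Limma adjusted p (log axis) of each gene with all 6 arrays and with each array left out, circles for subunits and squares for inhibitors; the dashed line is 0.05. NFKB2, NFKBIA, NFKBIZ and TNFAIP3 lie below the line in every column, and NFKB1 and RELB rise above it without any of the ox-LDL arrays.

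Other genes of the pathway were read from lists of receptors, kinases and adapters, further inhibitors and effector targets. Together 78 of 90 listed genes were measured, of which 22 fell, 1 rose and 55 did not pass, where 3.29% of all probe sets fell and 3.48% rose. Among the 9 measured receptors, CD40, which signals to both NF-kB pathways, fell by 0.36 on the log2 scale (SE 0.08, limma adjusted p = 0.0417), and 8 did not pass. A single call among 9 is too few to set against the 6.77% called over all probe sets. TLR3, the sensor of double-stranded RNA, was at 6.51 ± 0.76 with vehicle and 7.78 ± 0.10 with ox-LDL (SD, n = 3 each). That log2 difference of 1.27 (SE 0.34) missed the threshold (limma adjusted p = 0.0756), and without the third vehicle array it was 0.84 and passed (adjusted p = 0.00525). For TNFRSF12A and TLR2 the log2 differences were -0.25 and -0.33 (limma adjusted p = 0.125 and 0.154). The receptor median was -0.08. Without the third vehicle array 3 receptors passed, 1 higher and 2 lower, where 12.4% of all probe sets passed. CD40 lost its call without any other single array.

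Of 22 measured kinases and adapters, 3 fell and 19 did not pass, with a median log2 difference of -0.04. That share is 13.6%, where 6.77% of all probe sets passed and 3.29% fell. IRAK2, a kinase of interleukin 1 and Toll-like receptor signalling, fell by 1.32 (SE 0.08, limma adjusted p = 0.000847). RIPK2, the kinase of the NOD receptors, fell by 0.53 (SE 0.08, adjusted p = 0.0126). RBCK1, a subunit of the complex that makes linear ubiquitin chains, fell by 0.31 (SE 0.07, adjusted p = 0.0433), and TAB3, an adapter of the kinase TAK1, had a log2 difference of -0.30 (adjusted p = 0.0961). The core IkB kinase genes IKBKB, IKBKG and CHUK, chosen after their values were seen, stood at log2 differences of -0.05, 0.02 and 0.21 (limma adjusted p = 0.709, 0.883 and 0.350). RBCK1 kept its call without the third vehicle array but lost it without vehicle replicate 1 or 2 (adjusted p = 0.0840 and 0.107), without ox-LDL replicate 1, 2 or 3 (0.141, 0.172 and 0.176) and with array medians set equal (0.0650). RIPK2 lost its call without ox-LDL replicate 1, 2 or 3 (adjusted p = 0.0600, 0.0767 and 0.0772), which left 1 gene of this list passing. Without the third vehicle array 6 passed, where 12.4% of all probe sets did.

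Of 18 further inhibitors measured, TNIP1, a partner of A20, fell and PDLIM2, a ubiquitin ligase for nuclear RelA, rose, while 16 did not pass. That is 11.1% called, where 6.77% of all probe sets were. The median log2 difference of the 18 was -0.23, against -0.03 over all probe sets. Of the 18, 13 had a difference below 0, as did 11818 of the 21448 probe sets. The groups did not overlap, with ox-LDL lower, for 7 of the 18, where 17.7% of all probe sets did so. With array weights 8 of the 18 passed, 7 of them lower, where 18.5% of all probe sets passed. TNIP1 fell by 1.19 (SE 0.07, limma adjusted p = 0.000671) from 10.42 ± 0.06 to 9.23 ± 0.04 (SD, n = 3 each). PDLIM2 rose by 0.54 (SE 0.11, limma adjusted p = 0.0399), and lost its call without any array but the third vehicle array, which left 1 member passing. Without the third vehicle array 4 passed, where 12.4% of all probe sets did. TAX1BP1, another A20 partner, and NFKBIB, which encodes IkBβ, reached log2 differences of -0.29 and -0.32 (limma adjusted p = 0.0639 and 0.0787).

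Of 29 measured effector targets, which are cytokine, chemokine, adhesion and survival genes with NF-kB sites in textbook accounts, 17 fell and 12 did not pass (median -0.88). Over all probe sets 3.29% were lower. Among the 17 was BCL2A1, whose group means of 5.19 and 4.10 were both below the negative control value of 5.21, so its fall is uncertain. In all, 3 of the 29 had both group means at or below the negative controls. The smallest p-values belonged to CSF3, CXCL8, PTGS2 and CXCL3, with log2 differences of -2.87, -1.97, -4.13 and -2.13 (SE 0.09, 0.09, 0.19 and 0.10). CXCL3 is a close paralog of CXCL1 and CXCL2, which had log2 differences of -1.22 and -1.77 (limma adjusted p = 0.000482 and 0.00076). Whether its probes also read their transcripts was not tested, so its value is uncertain. With an array left out, 16 or 17 members were lower. Without the third vehicle array 17 were lower and 1 was higher, where 12.4% of all probe sets passed. Several of these genes were already known from these arrays to be lower, so the count is not independent support.

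**Figure D4:**
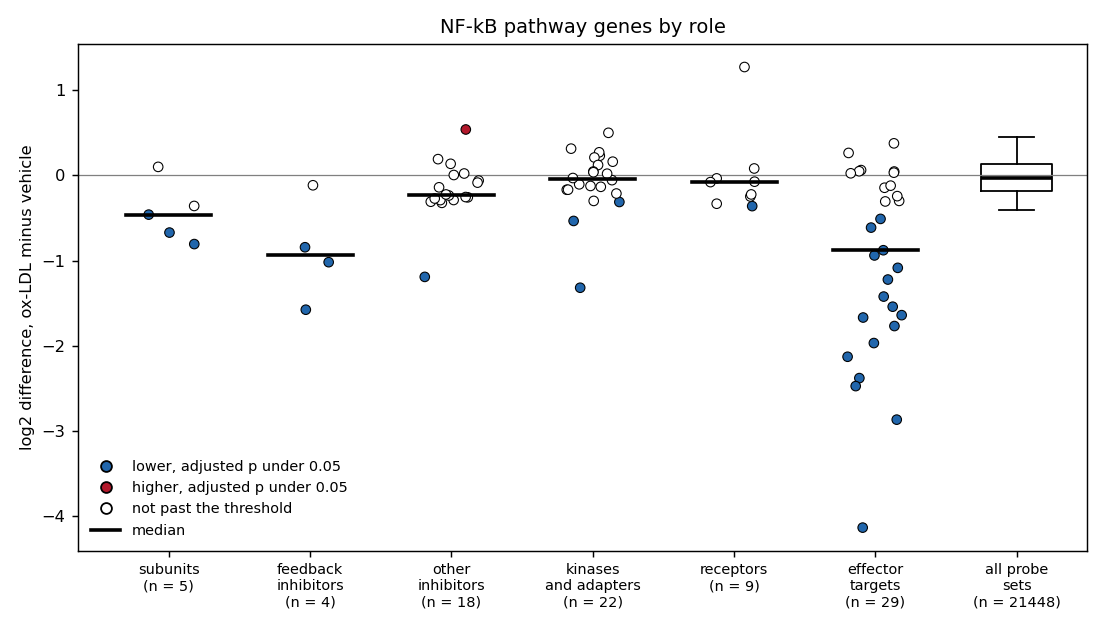
Log2 difference between ox-LDL and vehicle on the vertical axis for each measured gene, grouped by role, with the median as a bar; the box at the right gives the quartiles and median of all 21448 probe sets, with whiskers from the 5th to the 95th percentile. Filled points make up 3 of 4 feedback inhibitors, 3 of 5 subunits and 17 of 29 effector targets, and the medians of receptors and of kinases and adapters lie at -0.08 and -0.04.

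Across the 6 arrays, the named genes whose centred log2 values lay closest to those of NFKBIA were SELENOS, which encodes a selenoprotein of the endoplasmic reticulum, the vascular growth factor gene VEGFA, and AMIGO3. Their root mean square distances were 0.021, 0.037 and 0.040 log2 units, and their log2 differences -0.85, -0.80 and -0.79. For RELA the closest were MAP7, which encodes a microtubule-associated protein, OSCAR and TRIM41, at distances of 0.020, 0.022 and 0.023 and with log2 differences of -0.37, -0.33 and -0.33, none of which passed (adjusted p = 0.0689, 0.0768 and 0.10). Such closeness was read among 17678 genes over 6 arrays in 2 groups, and many genes share such a shape.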

How the data were processed

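The authors deposited log2 expression values of 6 single-colour arrays, and the submitters' processing notes name RMA, the robust multi-array average. Of RMA's version, settings, genome build and annotation, none is given in the sources used here. Biotinylated cDNA came from 500 ng of total RNA, per the labels' protocols. RMA equalises the arrays, so a change of total RNA per cell is not seen, and it compresses dim genes. Of 24350 probe sets, 2902 controls were left out and 21448 tested, 17709 of them with exactly 1 symbol, 3739 with none and 0 with several. All arrays entered 1 limma model (lmFit and eBayes, limma 3.58.1, R 4.3.3; figures with matplotlib 3.10.9), with two-sided p-values adjusted by Benjamini-Hochberg over all probe sets and called under 0.05. The procedure was tested on simulated data in which each probe set had the same normal noise on every array. Such data do not cover an array that stands apart, as the third vehicle array does. For 20 genes with several probe sets, the one with the highest mean was used.

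The members and lists were chosen with earlier results of these data known. Genes named beyond the members are the 4 with the smallest p in each list and the 3 closest to RELA and to NFKBIA by root mean square distance. Exceptions, chosen after their values were seen, are IKBKB, IKBKG, CHUK, CXCL1, CXCL2, BCL2A1, KRT7, KRT8, KRT18, KRT19, EPCAM and VWF. EHMT2 was read because of the labels, and markers at or below the negative controls are named. The 16 alternatives covered the scaling (array medians set equal, quantiles again, cyclic loess), brighter probe sets only, the variance model (intensity trend with robust fit, array weights, no moderation), a block for the replicate number, 2 other call rules and leaving out each array. The number of arrays limits the precision. Protein sequences were not used here.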

Additional observations from a re-analysis of the deposited data

How the results depend on the processing

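All 9 members kept the sign of their log2 difference in all 16 alternatives. Under the 3 other scalings the median difference of all probe sets ran from -0.01 to 0.001, and the same 6 members were called. The count of members called lower was 4 to 7 over the alternatives, with 7 among brighter probe sets only, with an intensity trend and robust fit and with array weights, where RELA was added; NFKB1 and RELB were lost in others. The 3 subunits called became 1 at an adjusted p under 0.01, and 1 to 4 with an array left out; the 3 inhibitors stayed at 3 in every alternative. Over all probe sets the count of 1451 was 2608 among brighter probe sets only, 2649 with an intensity trend, 3962 with array weights, 550 with the replicate block, 496 under the study's selection, 382 at an adjusted p under 0.01, and 305 to 2670 with an array left out. The pathway count of 23 ran from 18 to 39 over the alternatives. It was 39 with array weights, where 18.5% of all probe sets passed. With the replicate block, under the study's selection and at an adjusted p under 0.01 it was 18. The count was also 18 without any of the ox-LDL arrays. No pairing of samples by replicate number was seen. Deviations from the group means correlated at -0.006, 0.030 and 0.020 for the 3 numbers, and 2 of 6 samples correlated best with their own number. With 3 arrays a group, such a check cannot decide whether the samples were paired. With the replicate block 5 members were called, without NFKB1 (adjusted p = 0.0703) and RIPK2, RBCK1, CD40 and PDLIM2 lost their calls. The causes of these moves were not tested. With 3 arrays a group, small differences such as those of REL and NFKBIE are resolved only to the width of their intervals.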
